A study of Mus musculus with 18 samples.

Results

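The genes described here make heme, the iron-carrying ring of hemoglobin and of the cytochrome P450 enzymes. They are 9 of the 31165 genes listed for 18 livers of newborn C57BL/6J mice, and were chosen by gene symbol: Alas1, Alas2, Slc25a38, Alad, Uros, Urod, Cpox, Ppox and Fech. All 9 passed the filter on low values (a mean of at least 10) and so were among the 14104 genes tested. The pups received a chemically stabilized miR-497a-5p mimic, or an inert scrambled mimic as control, by intraperitoneal injection on days 1 and 3 of life. They were killed at P5, P7 or P14, where P1 is the day of birth. The 6 groups were mimic and scrambled at P5, mimic and scrambled at P7, and mimic and scrambled at P14, with 3 libraries in each. Doses of 100 and of 10 mg per kg were used in the study, and no library's label says which of them its pup received. A small cube of liver, with all its cell types, was taken for RNA, and the labels do not say which pups were littermates. The p-values therefore measure the spread between these livers.

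Heme synthesis begins and ends in mitochondria, with a middle part in the cytosol. Its first and rate-limiting step, the joining of glycine to succinyl-CoA, has a pair of isoenzymes encoded by different genes. Alas1 is expressed in most tissues and in hepatocytes feeds the cytochrome P450 enzymes, while Alas2, on the X chromosome, is specific to red cell precursors. The remaining enzymes are shared by both cell types, and the liver of a newborn mouse holds red cell precursors as well as hepatocytes.

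The injected sequence, the DNA upstream of Alas2 and DNA upstream of an internal start of Alas1 are shown first. This is because the comparisons below are between mimic and scrambled and between Alas1 and Alas2. The mature microRNA lies at chr11:70234730-70234751 on the plus strand (GRCm38.p6, RefSeq), and its seed, bases 2 to 8, is in capitals.
mmu-miR-497a-5p: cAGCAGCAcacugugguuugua
Its complement, TGCTGCT, was searched for in the longest annotated 3′ UTR of each gene (GENCODE M21) and occurred in that of 1 of the 9, Fech. The Fech 3′ UTR was also the longest searched, at 5243 bases against 65 to 1629 for the rest. The share of all genes with such a match was not computed. The 208 bases before the annotated start of Alas2 lie at chrX:150547167-150547374 on the plus strand, and capitals mark a match to the GATA motif, AGATAA or TGATAA on either strand, which GATA1 is known to bind in red cell precursors.
Alas2 upstream: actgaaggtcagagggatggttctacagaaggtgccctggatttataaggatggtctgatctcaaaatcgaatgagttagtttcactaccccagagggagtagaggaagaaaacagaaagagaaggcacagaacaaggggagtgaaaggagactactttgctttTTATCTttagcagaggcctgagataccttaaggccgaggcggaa
RefSeq start windows of 250 bases were found for 8 of the 9 genes, 11 windows in all, and 3 of the 11 held a GATA match: those of Alas2, Cpox and the internal start of Uros. Among 32851 such windows of all genes, 16.6% held one. The 30 bases around the Cpox match lie at chr16:58670110-58670139 on the plus strand, and those around the Uros match at chr7:133702551-133702580 on the minus strand. Of the 250 bases of this Uros window, 116 are in annotated exons of Uros, and the 30 around the match are among them. The motif is in capitals.
Cpox: aaagcgcctatcTTATCAgtccaagcacct
Uros: tctccctcagccTTATCAgtgacagagggc
A window of Alas1 held no GATA match but 2 overlapping matches to GCATGCGC, the core of the motif of NRF1, a regulator of mitochondrial genes. This motif was in 1 of the 11 windows and in 2.26% of all windows. The 30 bases around it, with both matches in capitals, lie at chr9:106247907-106247936 on the minus strand. They lie inside the annotated gene, which begins at 106248654 on this strand. Of the 250 bases of this window, 235 are in annotated exons of Alas1, and these 30 are among them.
Alas1: ccgcacccaagGCGCATGCGCggcggtcac
These are matches of letters in a window, and no binding was measured.

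The values were scaled counts, which are the authors' gene counts put on a common scale and rounded, and they summed to between 3954405 and 4248257 per library. The P7 scrambled libraries stand apart in 2 ways. The summed scaled count of 5 muscle genes was 1452, 20 and 366 in P7 scrambled replicates 1, 2 and 3, and at most 17 in any other library. For the 8338 genes that averaged below 0.2 in the other 15 libraries, the sum was 1099, 2584 and 50034 in P7 scrambled replicates 1, 2 and 3, and at most 309 in any other library. The low sums of the other 15 libraries follow in part from that choice of genes. Member calls that change without replicates 2 and 3, or without replicates 1 and 3, are given with and without them, and the second of these omissions was chosen after seeing the data. The hepatocyte list summed to between 13043 and 19590 in every library. The summed level of 23 red cell genes ranged from 15115 to 21295 at P5, from 10256 to 16783 at P7 and from 2404 to 4124 at P14.

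With age, Alas1 rose while 7 of the other 8 genes fell. At P14, Alas1 was 1.59-fold higher than at P5 and Alas2 was at 0.509 of its P5 level, so the isoenzymes moved in opposite directions. Ppox and Uros fell furthest, to 0.352 and 0.412 of P5, and Alad was the only member whose difference did not pass the test. Differences are on the log2 scale of scaled count + 1, from limma, with a Benjamini-Hochberg adjusted p under 0.05 over all 14104 genes counted as a call. The ages were compared over both injections, 6 libraries a day. From P5 to P14, 1 member was called higher and 7 lower, where 23.9% of all genes were called higher and 24.8% lower. The median difference of the members was -0.53, and that of all genes was 0.01. Because these are pieces of whole tissue, fewer cells of a type and less RNA per cell cannot be told apart.

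**Figure D1:**
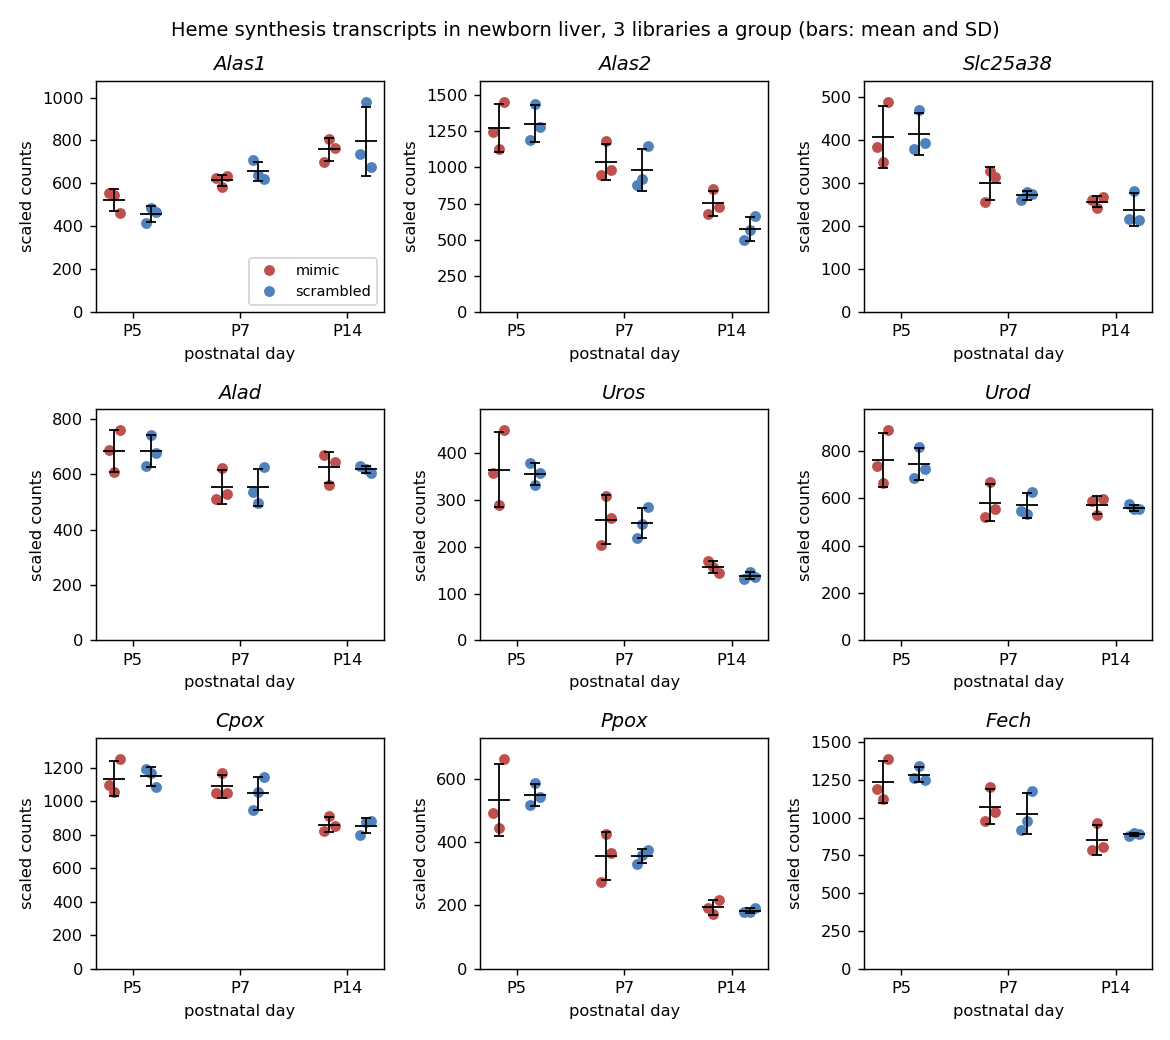
Scaled counts of the 9 heme synthesis genes (vertical axis) in every library by postnatal day, with mimic in red at the left and scrambled in blue at the right of each day; points are libraries and bars are the mean and SD of 3. Alas1 climbs with age in both groups, while Alas2, Uros and Ppox are lowest at P14.

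Alas1 (chromosome 9, 106233455 to 106248654, minus strand, mm10 as the table gives it) had scaled counts of 555, 544 and 461 in P5 mimic and 416, 485 and 468 in P5 scrambled livers. At P7 it had 623, 584 and 634 in mimic and 707, 640 and 622 in scrambled livers, and at P14 701, 808 and 766 in mimic and 735, 979 and 674 in scrambled livers. Every P7 and every P14 value lay above every P5 value, and P7 and P14 overlapped. Here and for the members below, the share of all genes whose ages do not overlap was not computed. Over both injections Alas1 averaged 488 ± 52.8 at P5 and 635 ± 40.3 at P7, and reached 777 ± 110 at P14 (SD, n = 6 each). Alas1 rose by a log2 difference of 0.38 ± 0.083 (SE) at P7 over P5 (limma adjusted p = 0.00525) and by 0.67 ± 0.083 at P14 over P5 (adjusted p = 2.04e-06). The step from P7 to P14 was 0.28 (adjusted p = 0.00873), and without P7 scrambled replicates 2 and 3 it was 0.23 and no longer passed (adjusted p = 0.103). Without P7 scrambled replicates 1 and 3 it was 0.3 and passed (limma adjusted p = 0.028).

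Alas2 (chromosome X, 150547375 to 150570638, plus strand) had scaled counts of 1245, 1126 and 1453 in P5 mimic and 1191, 1442 and 1277 in P5 scrambled livers. At P7 the values were 950, 1180 and 985 in mimic and 879, 919 and 1149 in scrambled livers. At P14 they were 675, 849 and 729 in mimic and 496, 564 and 663 in scrambled livers. All 6 P14 values lay below all P7 and all P5 values, and P5 and P7 overlapped. Alas2 fell by a log2 difference of 0.35 at P7 against P5 (limma adjusted p = 0.0127) and by 0.62 at P14 against P7 (adjusted p = 3.35e-05). The whole fall from P5 to P14 was -0.97 ± 0.094 (SE, adjusted p = 8.45e-08). In the mimic livers it was -0.76 and in the scrambled livers -1.19.

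The ratio of Alas1 to Alas2 within each library sets both isoenzymes beside each other without the scaling between libraries. Per kb of the longest coding transcript, it averaged 0.249 ± 0.052 in mimic and 0.21 ± 0.009 in scrambled livers at P5. It averaged 0.359 ± 0.054 in mimic and 0.408 ± 0.079 in scrambled livers at P7, and 0.607 ± 0.033 in mimic and 0.846 ± 0.219 in scrambled livers at P14 (SD, n = 3 each). Over both injections the ratio was 1.67-fold higher at P7 than at P5, 1.87-fold higher at P14 than at P7 and 3.12-fold higher at P14 than at P5. Each of these 3 comparisons gave p = 0.00216 in a two-sided exact permutation test of the log2 ratios, the smallest value that 6 libraries against 6 allow (adjusted p = 0.00216 over the 3). Alas2 remained the more abundant transcript per kb at all 3 ages, with a mean level of 325 ± 60.8 scaled counts per kb against 229 ± 32.2 for Alas1 at P14 (SD, n = 6). At this length, P14 scrambled replicate 2, at a ratio of 1.04, was the only library with more Alas1 than Alas2 per kb. In scaled counts not divided by length, every P14 library except mimic replicate 2 (808 against 849) had more Alas1 than Alas2. Ratios of single libraries were not computed with other lengths. The mean of Alas2 was above that of Alas1 at each age also with the shortest principal transcript or with all exons as the length.

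**Figure D2:**
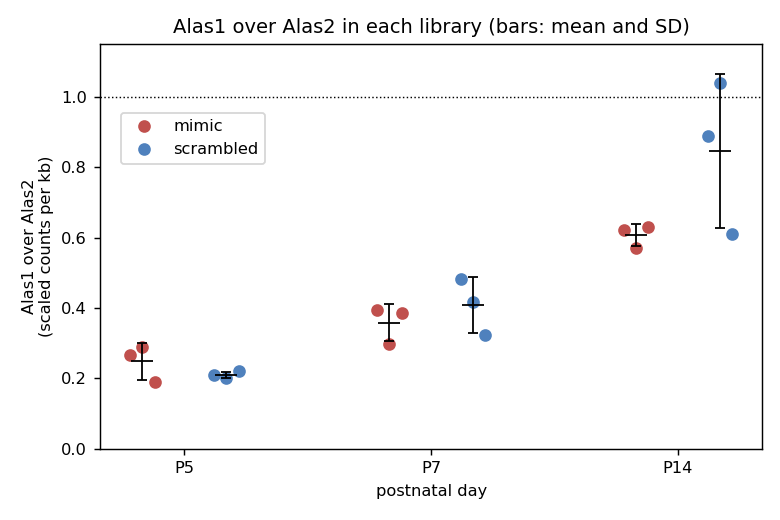
Ratio of Alas1 to Alas2 (vertical axis, scaled counts per kb of transcript) in every library by postnatal day, mimic in red at the left and scrambled in blue at the right; bars are the mean and SD of 3, and the dotted line marks equal levels. The ratio climbs at each age, and 1 P14 scrambled library passes 1, at 1.04.

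Slc25a38 (chromosome 9, 120110374 to 120124504, plus strand), which encodes a mitochondrial carrier that brings in glycine for the first step, had scaled counts of 383, 349 and 488 in mimic and 379, 470 and 393 in scrambled livers at P5. It had 255, 327 and 314 in mimic and 259, 279 and 275 in scrambled livers at P7, and 261, 241 and 267 in mimic and 217, 282 and 214 in scrambled livers at P14. All P7 and all P14 values lay below all P5 values, and P7 and P14 overlapped. The log2 difference was -0.52 from P5 to P7 (limma adjusted p = 0.00292) and -0.21 from P7 to P14, which did not pass (adjusted p = 0.0797). The later difference passed without P7 mimic replicate 1 (adjusted p = 0.0374) or P14 scrambled replicate 2 (adjusted p = 0.0265). Over the whole span Slc25a38 fell by 0.73 ± 0.096 (SE, adjusted p = 4.22e-06).

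The cytosolic steps follow. Alad (chromosome 4, 62509169 to 62519918, minus strand), which joins a pair of aminolevulinate molecules into porphobilinogen, had 689, 609 and 759 in mimic and 630, 744 and 678 in scrambled livers at P5. The values were 510, 623 and 530 in mimic and 535, 497 and 628 in scrambled livers at P7, and 672, 563 and 644 in mimic and 631, 621 and 605 in scrambled livers at P14. The 3 ages overlapped. Alad was lower at P7 than at P5 by a log2 difference of -0.31 (limma adjusted p = 0.00952), while its difference from P7 to P14 was 0.17 (adjusted p = 0.0676) and from P5 to P14 -0.14, with an interval from -0.3 to 0.03 (95%, adjusted p = 0.155). The P7 to P14 difference of Alad passed under TMM scaling (adjusted p = 0.041). It also passed without P7 mimic replicate 2, P7 scrambled replicate 3 or P14 mimic replicate 2 (adjusted p = 0.0271, 0.0251 and 0.0347), and without P7 scrambled replicates 1 and 3 together (adjusted p = 0.0341).

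Uros (chromosome 7, 133686356 to 133709281, minus strand), the synthase that closes the porphyrin ring, had 358, 289 and 449 in mimic and 379, 332 and 359 in scrambled livers at P5. It had 204, 309 and 262 in mimic and 220, 248 and 285 in scrambled livers at P7, and 170, 156 and 144 in mimic and 132, 146 and 136 in scrambled livers at P14. Every P14 value was below every earlier one. The log2 difference was -0.5 from P5 to P7 (limma adjusted p = 0.00548), -0.78 from P7 to P14 (adjusted p = 1.61e-05) and -1.28 ± 0.11 (SE) from P5 to P14 (adjusted p = 1.89e-08).

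Urod (chromosome 4, 116989965 to 116994413, minus strand), the decarboxylase of the next step, had 735, 664 and 887 in mimic and 688, 819 and 724 in scrambled livers at P5. The values were 520, 669 and 556 in mimic and 546, 535 and 629 in scrambled livers at P7, and 589, 528 and 597 in mimic and 576, 554 and 554 in scrambled livers at P14. P14 lay wholly below P5, and P7 overlapped both. Urod fell by 0.39 from P5 to P7 (limma adjusted p = 0.00445), and the difference from P7 to P14 was -0.02, with an interval from -0.18 to 0.15 (95%, adjusted p = 0.856). Slc25a38, Alad and Urod thus each passed the test from P5 to P7 and not from P7 to P14; whether the steps differ from each other was not tested.

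The last steps return to the mitochondrion. Cpox (chromosome 16, 58670208 to 58680391, plus strand), the coproporphyrinogen oxidase, had 1099, 1053 and 1252 in mimic and 1193, 1170 and 1082 in scrambled livers at P5. It had 1049, 1167 and 1050 in mimic and 946, 1053 and 1144 in scrambled livers at P7, and 822, 911 and 849 in mimic and 801, 878 and 880 in scrambled livers at P14. Every P14 value was below every earlier one, and P5 and P7 overlapped. Its difference from P5 to P7 was -0.1 (limma adjusted p = 0.256, and 0.0233 after quantile normalization), and it then fell by 0.32 from P7 to P14 (adjusted p = 0.000471).

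Ppox (chromosome 1, 171276992 to 171281186, minus strand), the protoporphyrinogen oxidase, had 492, 446 and 663 in mimic and 518, 586 and 544 in scrambled livers at P5. It had 275, 426 and 366 in mimic and 332, 361 and 376 in scrambled livers at P7, and 192, 172 and 218 in mimic and 180, 178 and 193 in scrambled livers at P14. It was the one member whose 3 ages did not overlap at all, and the share of all genes like this was not computed. The log2 difference was -0.61 from P5 to P7 (limma adjusted p = 0.00239), -0.9 from P7 to P14 (adjusted p = 1.63e-06) and -1.51 ± 0.105 (SE) from P5 to P14 (adjusted p = 1.17e-09).

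Fech (chromosome 18), the ferrochelatase that inserts iron into the finished ring, had 1193, 1126 and 1389 in mimic and 1260, 1342 and 1252 in scrambled livers at P5. The values were 980, 1202 and 1039 in mimic and 920, 978 and 1178 in scrambled livers at P7, and 783, 967 and 806 in mimic and 881, 899 and 892 in scrambled livers at P14. P14 lay wholly below P5, and P7 overlapped both. Fech fell by 0.27 from P5 to P7 (limma adjusted p = 0.0169) and by 0.53 ± 0.076 (SE) from P5 to P14 (adjusted p = 1.1e-05). The early call was lost without P5 mimic replicate 3 (adjusted p = 0.0566) or P7 mimic replicate 1 (adjusted p = 0.0563). The step from P7 to P14, -0.27 (adjusted p = 0.0078), was -0.19 without P7 scrambled replicates 2 and 3 and did not pass (adjusted p = 0.105). Without P7 scrambled replicates 1 and 3 it was -0.23 and passed (adjusted p = 0.0388).

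Per age step, 1 member was called higher and 7 lower at P7 against P5, where 13.7% of all genes were called higher and 13.2% lower. At P14 against P7, 1 member was called higher and 5 lower, where the shares of all genes were 24% and 26.3%. Within the mimic livers alone, 1 member was called higher and 7 lower at P14 against P5 (14.9% of all genes higher, 18.5% lower). Within the scrambled livers alone the count was again 1 higher and 7 lower (16.1% and 19.1% of all genes). The single steps gave fewer calls with 3 livers a group. At P7 against P5, 0 members were called higher and 4 lower within the mimic livers (6.67% and 3.37% of all genes). Within the scrambled livers 0 of 9 were called at that step, where 0% of all genes were called in either direction and 3265 passed 0.05 before adjustment (limma). At P14 against P7, 0 were called higher and 5 lower within the mimic livers (12.4% and 17.1% of all genes), and 0 higher and 4 lower within the scrambled livers (14.4% and 19.4%).

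**Figure D3:**
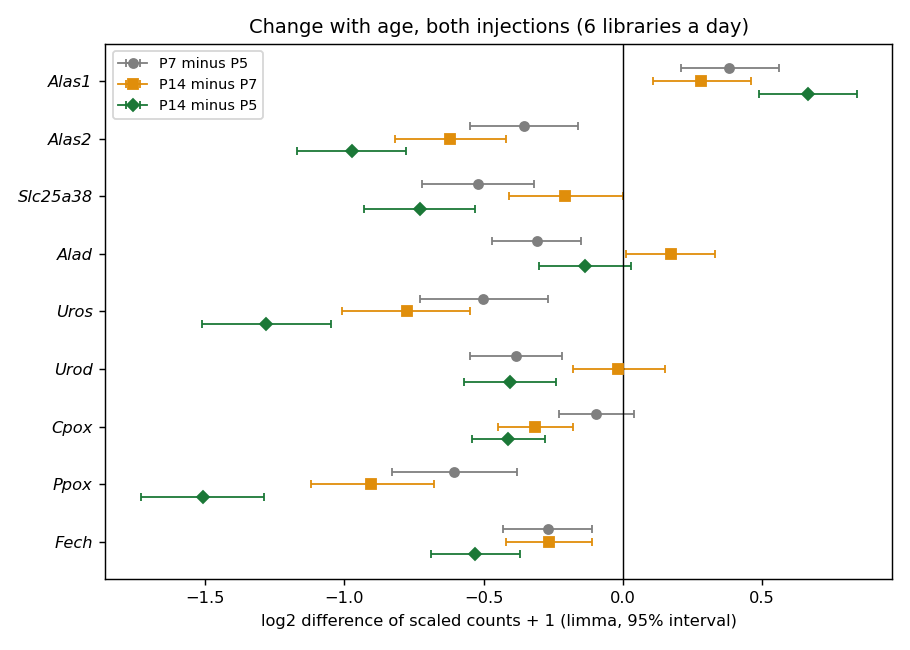
Log2 differences between ages (horizontal axis, scaled count + 1, both injections, 6 libraries a day) for the 9 genes in pathway order, with 95% intervals from limma. Alas1 lies right of 0 in all 3 comparisons, and Ppox and Uros lie furthest left, at -1.51 and -1.28 for P14 minus P5.

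How alike the profiles of a pair of genes were was measured as the root mean square difference of log2 values over the 18 libraries, each gene centred on its own mean, so that the shared change with age enters every distance. Uros and Ppox were close, at a distance of 0.157, and Alas1 and Alas2 far apart, at 0.719. Alad lay about as far from Alas1, at 0.405, as from Alas2, at 0.423. Among 9916 genes averaging at least 100, the nearest to Alas1 were Xylb (0.123), a xylulose kinase, Ttc39c (0.139), Depdc7 (0.142), Fastkd1 (0.143) and Dnajc22 (0.145). The nearest to Alas2 were Bpgm (0.06), which makes the bisphosphoglycerate of red cells, Car2 (0.118), a carbonic anhydrase abundant in red cells, Pabpc4 (0.147), Odc1 (0.157) and Hmgb2 (0.158).

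Other genes of heme handling were taken from lists, with their counts for P14 against P5, to be read against the 23.9% of all genes called higher and 24.8% called lower. Of 10 genes for mitochondrial import and porphyrin transport, 0 rose and 4 fell. The iron carrier gene Slc25a37 fell by 2.36 and its partner Abcb10 fell by 1.73. The iron-sulfur cluster gene Glrx5 fell by 0.32, and Tmem14c, a porphyrin transporter gene of the inner mitochondrial membrane, fell by 0.2 (limma adjusted p = 0.0319). The call of Tmem14c was lost under TMM scaling (adjusted p = 0.0647), without the filter (adjusted p = 0.068) and without P5 mimic replicate 3, P5 scrambled replicate 2 or 3, P14 mimic replicate 2 or P14 scrambled replicate 3.

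Most listed genes linked to the transcription of Alas1 rose, in a list that does not separate genes that raise Alas1 from genes that lower it. Of 8 such genes, the P450 reductase gene Por among them, 7 rose and 1 fell, with a median of 0.42. Foxo1, a factor of the fasting response, rose by 0.75, Nr1d2, a heme-binding clock receptor, by 0.54, and Por by 0.24. Nrf1, the gene of the factor whose motif is marked above for Alas1, fell by 0.86. The part of any of these genes in the change of Alas1 was not tested. Of 4 genes acting on the enzyme protein, 2 rose: Clpx, a chaperone subunit known to act on the enzyme, by 0.32 and the protease gene Lonp1 by 0.18. The call of Lonp1 was lost without P5 mimic replicate 2, P5 scrambled replicate 3, P14 mimic replicate 2 or 3, or P14 scrambled replicate 1 or 2. It was also lost without the filter (adjusted p = 0.0508), in a fit of the compared groups only (adjusted p = 0.0506) and after quantile normalization (adjusted p = 0.191). Of 12 enzymes of hepatocytes that use heme, 7 rose and 0 fell, among them Tdo2, which breaks down tryptophan, by 2.16, the bile acid genes Cyp27a1 by 1.11 and Cyp7a1 by 1.05, and Cyp1a2 by 0.77.

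Of 10 genes of heme breakdown and carriage tested, 5 fell and 2 rose. Hmox1, the inducible heme oxygenase, fell by 0.64, the heme transporter gene Slc48a1 by 0.55, Blvra, a biliverdin reductase, by 0.35 and the porphyrin exporter gene Abcg2 by 0.32. Of 6 genes of iron and heme sensing, 2 fell and 1 rose. Eif2ak1, the heme-regulated kinase of red cell precursors, fell by 0.89, the repressor gene Bach1 by 0.38 and the iron-responsive protein gene Aco1 rose by 0.23. Bach1 was no longer called without P5 mimic replicate 2, P5 scrambled replicate 1, P14 mimic replicate 1 or 3, P14 scrambled replicate 1 or the mean-variance trend (adjusted p = 0.0513 without the trend), and Aco1 was not called after quantile normalization (adjusted p = 0.0685).

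Taken as a list, red cell genes fell much further than Alas2. Of 23 red cell genes tested, 20 fell and 0 rose from P5 to P14, with a median of -3.88. Kel, a blood group gene, had 10.2 ± 8.33 scaled counts at P14 against 677 ± 109 at P5, and Sptb, a spectrin gene of the red cell membrane, had 120 ± 22.5 at P14 against 1771 ± 338 at P5 (SD, n = 6 each). Over the same span the hepatocyte list had a median of 0.15 and 4 of 9 genes rose, led by Cps1, a urea cycle gene, at 0.77 and Tat, a tyrosine aminotransferase gene, at 0.51. Apob, one of the 4, was not called without any of 12 single libraries, without the filter (adjusted p = 0.0635) or without the trend (adjusted p = 0.0759).

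Set against the mean of the red cell genes in the same library, each of the 9 members was higher at P14. The list itself had a median difference of -3.88 from P5 to P14, against 0.01 for all genes. A gene that did not change would therefore also be higher relative to the list, so being higher does not by itself set the members apart. The share of all genes higher in this way was not computed. The member minus the mean of the list was tested by a two-sided exact permutation test over 6 libraries a day, with adjustment over the 27 member and age pairs. At P14 against P5 this difference was smallest for Ppox, 4.08-fold higher, then Uros, 4.78-fold, and Alas2, 5.91-fold. It was largest for Alad, 10.6-fold, and Alas1, 18.4-fold, and for all 9 members p was 0.00216, the smallest possible in an exact test (adjusted p = 0.00292). From P5 to P7 the picture was different: only Alas1, at a log2 difference of 0.81, Cpox, at 0.33, and Fech, at 0.16, passed, with Fech at an adjusted p of 0.0195 by the exact test. The other 6 lay between -0.18 and 0.12 on the log2 scale, and Alas2 was at 0.07 (exact test, adjusted p = 0.306). Fech did not pass without P5 mimic replicate 3 (adjusted p = 0.0501) or after quantile normalization (adjusted p = 0.0956), and Ppox passed as lower without P7 scrambled replicate 1 (adjusted p = 0.00308) or replicates 1 and 3 (adjusted p = 0.00643). With 10 membrane and hemoglobin genes as the list, Fech no longer passed (adjusted p = 0.295) and Ppox, Slc25a38 and Uros were lower at P7 instead (adjusted p = 0.0139, 0.0457 and 0.0398).

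The levels per base of transcript bear on how these falls are read. Alas2 held 0.633 scaled counts per base at P5, 0.496 at P7 and 0.325 at P14. Alad and Urod held 0.549 and 0.506 at P5. Of 19029 genes with a coding transcript, 237 averaged over 0.5 per base. The hemoglobin genes Hba-a1 and Hba-a2, near-identical copies between which reads may be split, were low in this table, at 80.3 ± 13.5 and 80.5 ± 12.9 scaled counts at P5, and did not pass the test between P5 and P14 (log2 differences of -0.19 and -0.2). Hbb-bs and Hbb-bt fell by 0.56 and 0.66, Bpgm by 0.99, and Tfrc, the transferrin receptor gene, differed by -0.27 without passing (adjusted p = 0.0612), although it passed after quantile normalization (adjusted p = 0.00294) and without P14 mimic replicate 2 (adjusted p = 0.0128), among others. These 6 genes were chosen after their values were seen. Slc4a1, a membrane transporter gene of red cells, had 0.048 per base at P14 against 0.577 at P5. Whether abundant transcripts lost reads in the authors' processing, and so whether the fall of Alas2 is compressed, was not tested.

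**Figure D4:**
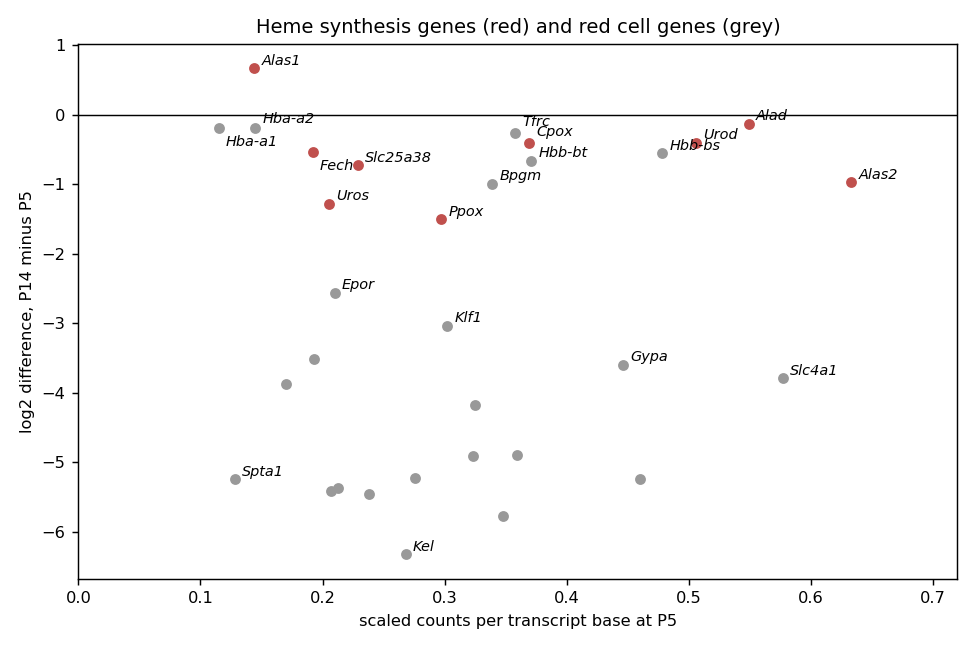
Log2 difference between P14 and P5 (vertical axis) against scaled counts per transcript base at P5 (horizontal axis) for the heme synthesis genes in red and red cell genes in grey. The heme synthesis genes lie between 0.67 and -1.51, with the hemoglobin genes, Bpgm and Tfrc, while the other red cell genes lie far below.

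The mimic was compared with its scrambled control at each day, the question for which the livers were collected. No member passed the test at any day, in the mean over the 3 days or in the test of a mimic effect that differs between days. At P5, 0 of 9 members were called higher or lower, where 0% of all genes were called in either direction (limma), and 266 of 14104 genes passed 0.05 before adjustment. The differences ran from -0.06 for Ppox and Fech to 0.19 for Alas1, with an interval from -0.06 to 0.43 for Alas1 (95%). At P7, 0 of 9 were called, where 0% of all genes were called higher and 0.00709% lower, and 1073 genes passed 0.05 before adjustment. The differences ran from -0.1 for Alas1 to 0.13 for Slc25a38. At P14, 0 of 9 were called, where 0.0142% of all genes were called higher and 0.00709% lower, and 763 genes passed 0.05 before adjustment.

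Among all members and days, Alas2 at P14 was the one case where the injections did not overlap. Its values were 675, 849 and 729 in mimic and 496, 564 and 663 in scrambled livers, means of 751 ± 89.1 and 574 ± 84 (SD, n = 3 each). Mimic exceeded scrambled by 0.39 ± 0.133 (SE) on the log2 scale, with an interval from 0.11 to 0.67 (95%) and a limma p of 0.00864 that did not survive adjustment over all genes (adjusted p = 0.668). In 4.96% of all genes tested, all 3 mimic values lay above all 3 scrambled values at P14, and in 4.35% all lay below. The shares above and below were 2.89% and 2.12% at P5, and 6.52% and 7.44% at P7. A single case over all members and days does not by itself set the members apart. The difference of the Alas2 mimic effect between P14 and P5 was 0.43 (limma, adjusted p = 1). The other members at P14 ran from -0.07 for Fech, the member with the seed match, to 0.18 for Uros, and the median over the members was 0.02.

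In the same livers, 21 of 23 red cell genes had a mimic difference above 0, with a median of 0.52 against 0.004 for all genes. The summed scaled counts of the list ranged from 3093 to 4124 in mimic and from 2404 to 3219 in scrambled livers and overlapped. Only Kel of the list was called, at a log2 difference of 2.14 (limma adjusted p = 0.00311). Its scaled counts were near the floor, at 15, 23 and 13 in mimic and 2, 2 and 6 in scrambled livers. Some other genes of the list were also low, such as Hemgn, at 31, 48 and 14 in mimic and 2, 19 and 7 in scrambled livers. Others were not, such as Tfrc, at 1274, 1855 and 1312 in mimic and 1267, 1707 and 1387 in scrambled livers. Relative to the mean of the list in its own library, Alas2 stood at log2 differences of 3.34, 3.46 and 3.78 in mimic and 4.23, 3.61 and 3.74 in scrambled livers, which overlap. Some lists of other cell types also lay mostly on 1 side of 0 in these livers, with no gene of them called. The share of all genes above 0 was not computed. The hepatocyte list had 8 of 9 genes below 0 (median -0.06) and the bile duct list 4 of 5 (median -0.17). The Kupffer cell list had 6 of 7 above 0 (median 0.08), and the endothelial list had 3 above and 3 below. All 7 neutrophil genes, all 6 B cell genes and all 5 megakaryocyte genes had a mimic difference above 0, with medians of 0.57, 0.70 and 0.22, while all 6 stellate cell and fibroblast genes lay below 0, with a median of -0.23. The neutrophil list summed to between 715 and 1039 in mimic and between 440 and 828 in scrambled livers, and the B cell list to between 386 and 467 in mimic and between 195 and 396 in scrambled livers. The megakaryocyte list summed to between 281 and 786 in mimic and between 380 and 399 in scrambled livers. The stellate cell and fibroblast list, at 4536 to 6442 in mimic and 6811 to 7335 in scrambled livers, did not overlap. The part of these cell types in the Alas2 difference was not tested. The ratio of Alas1 to Alas2 differed by a log2 of -0.44 between mimic and scrambled at P14, by -0.18 at P7 and by 0.22 at P5. None passed a two-sided exact permutation test (p = 0.3, 0.4 and 0.4, and 0.1 is the smallest that 3 libraries against 3 allow).

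**Figure D5:**
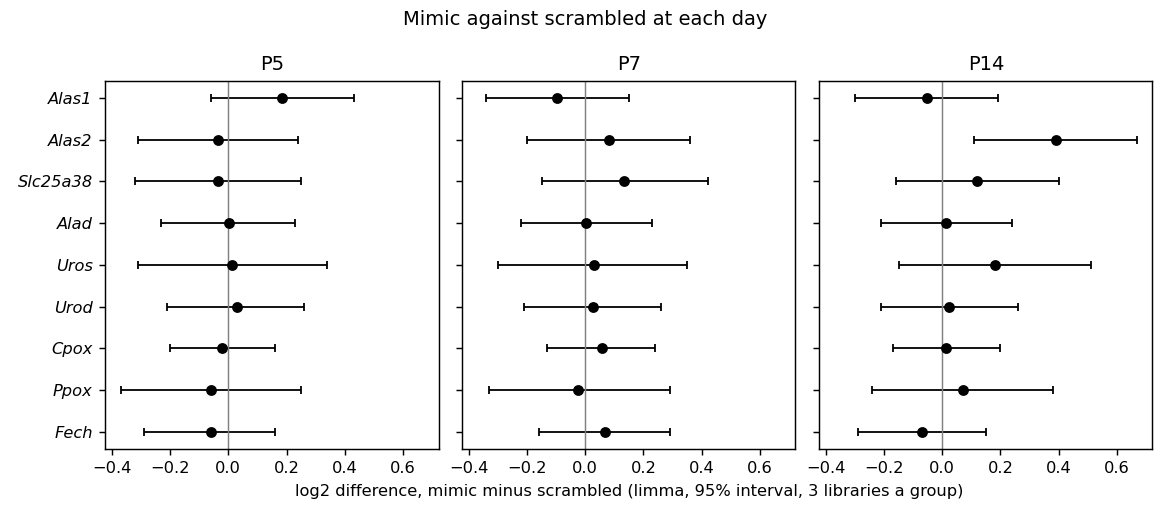
Log2 difference of mimic minus scrambled (horizontal axis, scaled count + 1) for the 9 genes at each day, 3 libraries a group, with 95% intervals from limma. Only the interval of Alas2 at P14, from 0.11 to 0.67, leaves out 0, and no difference passed adjustment over all genes.

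The order of the members by level per kb, over the longest coding transcript, changed with age. At P5 the order was Alas2, at 633 ± 65.3 scaled counts per kb, Alad at 549 ± 47.9, Urod at 506 ± 56.7 and Cpox at 369 ± 24.5, and then Ppox, Slc25a38, Uros, Fech at 192 ± 14.6 and Alas1, last, at 144 ± 15.5 (SD, n = 6 each). The ranges of neighbours in this order overlapped, except between Urod and Cpox and between Fech and Alas1. At P7 the order was Alas2, Alad, Urod, Cpox, Ppox, Alas1, Fech, Slc25a38 and Uros, and only Cpox and Ppox did not overlap as neighbours. At P14 it was Alad, at 499 ± 29.6, Urod at 380 ± 17.3, Alas2 at 325 ± 60.8, Cpox at 277 ± 13.2 and Alas1 at 229 ± 32.2. Below them came Slc25a38, Fech, Ppox at 104 ± 9.1 and Uros at 83.6 ± 7.9. Alad stood clear of Urod and Alas1 clear of Slc25a38, and the other neighbours overlapped. These places depend on the length used: with all exons as the length, Alas2 stood above Urod at P14, at 275.8 against 218.6 scaled counts per kb, and Slc25a38 above Ppox at P5, at 149.4 against 119.9.

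Several members share bases with a gene on the opposite strand. The library kit keeps strand, but no source used here gives the strand setting of the counting. The longest overlap of a single exon of Apex2 with an exon of Alas2 is 311 bases. Apex2 had mean scaled counts of 142, 148 and 153 at P5, P7 and P14, while Alas2 fell. For B4galt3 and Ppox the longest such overlap is 791 bases, and B4galt3 had means of 190.0, 171 and 172 at the 3 ages.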

How the data were processed

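Liver RNA of 18 mice was sequenced with a stranded mRNA kit (labels' protocols). The deposited values are scores, here called scaled counts: whole numbers that look like gene counts divided by a library factor and rounded by the authors. The submitters' processing notes name the build mm10 and the tools featureCounts 1.6.5, STAR 2.6.1d, Trimmomatic 0.39, DESeq2 1.26.0 and Picard 2.21.7. Whether duplicates were removed is not stated there. Raw counts were not used, so no count model was run and no counting interval is given.

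Genes with a mean of 10 or more (14104 of 31165, 45.3%) were log2-transformed with a pseudocount of 1 and tested in limma 3.58.1 (R 4.3.3): 6 group means, moderated variances with a trend on the mean, all 18 libraries, 12 residual degrees of freedom plus 6.49 from the prior, Benjamini-Hochberg adjustment over all genes, threshold 0.05. This scale understates the changes of weakly expressed genes. Within-library ratios were tested by exact permutation. Groups came from the titles. No pair of libraries was identical. Transcript lengths came from GENCODE M21 and sequences from RefSeq (GRCm38.p6). The scripts were tested on simulated data.

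Some genes of the pathway are not reported here. The members and lists were chosen with earlier results of these data known. Genes named from the lists of heme handling, red cell and hepatocyte genes were taken from the 4 with the smallest p at P14 against P5. Not all of these were named: Ermap, Tal1, Hnf4a, Pgrmc1, Clpp and Ireb2 were left out. Slc4a1 was named outside this rule, as were the hemoglobin genes, Bpgm and Tfrc. For Alas1 and Alas2 the 5 nearest profiles were named. Alternatives were TMM scaling, quantile normalization, no filter, a filter at 50, a pseudocount of 5, the compared groups only, no trend, a replicate block, each library left out, P7 scrambled replicates 2 and 3 left out, a shorter red cell list and, chosen after seeing the data, P7 scrambled replicates 1 and 3 omitted. Other software was Python 3.11.15, numpy 2.4.6, pandas 2.3.3, scipy 1.17.1, matplotlib 3.10.9 and, in R, data.table (1.17.8).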

Additional observations from a re-analysis of the deposited data

How the results depend on the processing

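The ratio of Alas1 to Alas2 by age kept its side of the threshold under every alternative run. The counts of called members and of members relative to the red cell list stayed within 1.5 times the value reported. The ratio by injection could not have crossed the threshold, since 0.1 is the smallest p of an exact test of 3 libraries against 3. TMM scaling can move a ratio within a library only through the pseudocount. With 1 library left out in turn, 7 to 8 members were called at P7 against P5, 6 to 7 at P14 against P7 and 8 at P14 against P5, and 0 for the mimic. With P7 scrambled replicates 2 and 3 left out, 4 members were called at P14 against P7 in place of 6, and with P7 scrambled replicates 1 and 3 left out, an alternative chosen after seeing the data, 7. For the mean over the 3 days the fit on the compared groups only was not run, since it uses the same libraries. Replicate numbers did not pair the livers: deviations of same-numbered libraries had correlations between -0.463 and 0.247. The replicate block left the member counts at 8, 6 and 8 for the 3 age comparisons and at 0 for the mimic.

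Single values near 0 changed sign. Under TMM scaling, mimic differences were -0.002 for Alad at P5, 0.032 for Ppox at P7, -0.003 for Alad and -0.003 for Cpox at P14 and 0.008 for Ppox over the 3 days, and Urod at P14 against P7 was 0.001. Under quantile normalization, mimic differences were 0.032 for Alas2, 0.057 for Cpox and 0.007 for Fech at P5, -0.03 for Alad, -0.019 for Urod and -0.001 for Cpox at P7, and 0.0 for Fech over the 3 days. Hba-a1 and Hba-a2 at P14 against P5 were 0.021 and 0.004. Without P7 scrambled replicates 2 and 3, Ppox at P7 was 0.076, Alas1, Ppox and Fech over the 3 days were -0.024, 0.029 and 0.029, and Urod at P14 against P7 was 0.01. Without P7 scrambled replicates 1 and 3, Urod at P14 against P7 was 0.025, and at P7 over P5 relative to the red cell list -0.006. Against the shorter red cell list, Alas2 and Urod at P7 over P5 were -0.024 and -0.056. The causes were not tested.

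With 1 library left out in turn, mimic differences at P5 ran from -0.134 to 0.05 for Alas2, -0.075 to 0.084 for Alad, -0.146 to 0.17 for Uros, -0.086 to 0.122 for Urod, -0.093 to 0.032 for Cpox, -0.228 to 0.058 for Ppox, -0.148 to 0.004 for Fech and -0.172 to 0.069 for Slc25a38. At P7 they ran from -0.012 to 0.201 for Alas2, -0.083 to 0.099 for Alad, -0.11 to 0.188 for Uros, -0.08 to 0.101 for Urod, -0.014 to 0.123 for Cpox, -0.165 to 0.15 for Ppox and -0.015 to 0.173 for Fech. At P14 they ran from -0.164 to 0.105 for Alas1, -0.04 to 0.088 for Alad, -0.009 to 0.079 for Urod, -0.032 to 0.045 for Cpox and -0.014 to 0.156 for Ppox, and for Alas2 from 0.289 to 0.498. Over the 3 days they ran from -0.024 to 0.065 for Alas1, -0.023 to 0.038 for Alad, -0.013 to 0.057 for Urod, -0.007 to 0.039 for Cpox, -0.06 to 0.054 for Ppox and -0.052 to 0.014 for Fech. Urod at P14 against P7 ran from -0.057 to 0.033, and relative to the red cell list at P7 over P5 from -0.022 to 0.066.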
